A study of Mus musculus with 6 samples.

Results

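Ligands that tumor cells display to T cells, natural killer (NK) cells and phagocytes were followed in 4T1 cells, a mouse mammary carcinoma line, that express METTL7A1. The 10 genes were chosen by name among the 48587 listed in the count table: Cd274, Cd80, Cd47, Cd276, Raet1e, H60b, Ulbp1, Pvr, Nectin2 and Lgals9. All 10 were listed. Of them, 8 passed the abundance filter of at least 1 cpm (a count scaled to library depth) in at least 3 of 6 libraries, and Cd80 and Raet1e did not.

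The METTL7A1 group comprised 3 libraries of 4T1 cells carrying a stably transfected full-length, FLAG-tagged Mettl7a1 cDNA in a vector with a CMV promoter. The mock group comprised 3 libraries of 4T1 cells carrying the empty vector, and both lines were kept under G418. The labels print 1 transfection protocol, that of the Mettl7a1 cDNA, for all 6 libraries, so groups were taken from the titles. Whether the transfected cells were a pool or a clone is not given in the sources used here. The p-values measure only the spread between these libraries, which may come from the same stable line. Counts of Mettl7a1, in order of replicate number, were 6355, 11358 and 10398 in METTL7A1 and 30, 30 and 29 in mock libraries, so each library matched its label. Libraries held 18386780 to 28459338 counts, and the fewest were in METTL7A1 replicate 1.

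The cell type was checked with marker genes. All 6 epithelial markers passed the abundance filter, with a summed level of 1461 to 1730 cpm in METTL7A1 and 1449 to 1772 cpm in mock libraries, and Krt14 was the only one that changed, with a log2 fold change of -1.94. Of 15 immune cell markers, Cd3e, Cd3d, Ncr1, Klrb1c and Nkg7 had 0 counts in every library, and 11 had at most 3 counts in any library. Ptprc, which encodes the pan-leukocyte antigen CD45, had 3 to 8 counts per library. Cd14, Cd68 and Csf1r, which mark monocytes and macrophages, rose by log2 fold changes of 1.47, 1.23 and 1.68, and the summed level of the 15 markers was 29.9 to 34.8 cpm in METTL7A1 and 12.1 to 14.0 cpm in mock libraries. All mock libraries of Csf1r lay under 1 cpm, so it passed the filter through its rise, and 17.8% of its exon bases lie opposite exons of the abundant gene Hmgxb3. Of 5 fibroblast and endothelial markers, Lum was at 0 and Dcn at no more than 3 counts. Pdgfra, the only one past the abundance filter, rose by a log2 fold change of 0.47. The summed level of the 5 markers was 24.0 to 26.7 cpm in METTL7A1 and 17.3 to 19.6 cpm in mock libraries. Whether other cells in the culture contributed to any result below was not tested. In these bulk samples, fewer cells that carry a transcript and less of it in each cell cannot be told apart.

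Immune cells read tumor cells through pairs of surface receptors and ligands. PD-L1, the product of Cd274, restrains T cells through PD-1, whereas CD80 binds both CD28 and CTLA-4, and CD47 holds back phagocytosis through SIRPα. The NK receptor NKG2D binds MHC class I-like ligands that stressed cells display, which in the mouse belong to the RAE-1, H60 and MULT1 families. CD155 (Pvr) and CD112 (Nectin2) are adhesion proteins of the nectin family shared by the activating receptor DNAM-1 and by inhibitory receptors such as TIGIT. The values below are RNA levels, not amounts of ligand on the cell surface.

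Sequences are shown for 3 start regions. Those of Cd274 and Lgals9, the lowest expressed ligands past the filter, hold an interferon-type motif. Whether the motif has a part in their levels was not tested. That of Raet1e lies before a first exon shared with H60b. Each sequence is the RefSeq promoter window of GRCm38.p6, cut to the 250 bases before the annotated start and written 5′ to 3′ on the strand of the gene. Capitals mark matches to the core of the interferon-stimulated response element, GAAANNGAA, searched on both strands.
Cd274 (chr19:29367188-29367437, plus strand): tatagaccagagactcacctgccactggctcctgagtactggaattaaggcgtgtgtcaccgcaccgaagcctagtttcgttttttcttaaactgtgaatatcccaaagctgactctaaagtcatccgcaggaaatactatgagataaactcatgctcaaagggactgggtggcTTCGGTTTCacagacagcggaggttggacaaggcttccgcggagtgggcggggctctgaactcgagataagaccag
Lgals9 (chr11:78984925-78985174, minus strand): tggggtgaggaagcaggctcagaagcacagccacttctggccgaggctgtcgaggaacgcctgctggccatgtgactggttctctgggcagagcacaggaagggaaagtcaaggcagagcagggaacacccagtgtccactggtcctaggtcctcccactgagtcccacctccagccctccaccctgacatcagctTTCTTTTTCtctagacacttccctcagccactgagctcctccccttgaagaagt
Raet1e (chr10:22158319-22158568, plus strand): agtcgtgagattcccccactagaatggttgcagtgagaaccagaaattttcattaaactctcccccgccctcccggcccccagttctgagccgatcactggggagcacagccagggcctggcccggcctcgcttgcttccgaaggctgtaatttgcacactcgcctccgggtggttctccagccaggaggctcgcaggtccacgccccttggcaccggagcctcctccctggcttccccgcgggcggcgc

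The match in Cd274 spans positions -76 to -68 from the start and that in Lgals9 positions -54 to -46, both read on the opposite strand. The same core was present in 7.15% of 32536 promoter windows, and in 2 of the 8 ligand genes with a window in the table. H60b and Pvr were not among these. The gamma-activated site TTCNNNGAA, found in 7.04% of windows, and the cyclic AMP response element TGACGTCA, found in 1.56%, matched no window of the 8 genes. A match describes letters and was not tested for binding. The Raet1e window ends where its first exon begins. In the deposited gene models the first exon of Raet1e (chr10:22158569-22158718) and that of H60b (chr10:22158586-22158718) end at the same base, so that both genes overlap by 133 exon bases on the same strand.

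The comparison of METTL7A1 with mock cells asked which of these ligand transcripts change when METTL7A1 is expressed. At an adjusted p under 0.05 (edgeR quasi-likelihood test, Benjamini-Hochberg over 13166 genes), 6 of the 8 tested ligands changed. Cd274, Cd47, Pvr, Nectin2 and Lgals9 rose and H60b fell, while Cd276 and Ulbp1 did not pass. Among all tested genes 42.1% passed, 21.1% higher and 21.0% lower in METTL7A1 cells. The median log2 fold change was 0.38 over the 8 ligands and -0.03 over all tested genes, and single ligands ranged from -0.51 to 0.77. None of the ligands passed the thresholds of the study (adjusted p under 0.01 and a log2 fold change over 1.5 in size), which 2.48% of all genes passed; 0 passed them with DESeq2 or limma voom either, and 6 had an unadjusted p under 0.05. The libraries of both groups did not overlap for 5 of the 8 ligands, close to the 51.6% of all genes. All adjusted p-values below come from this edgeR test unless another is named.

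**Figure D1:**
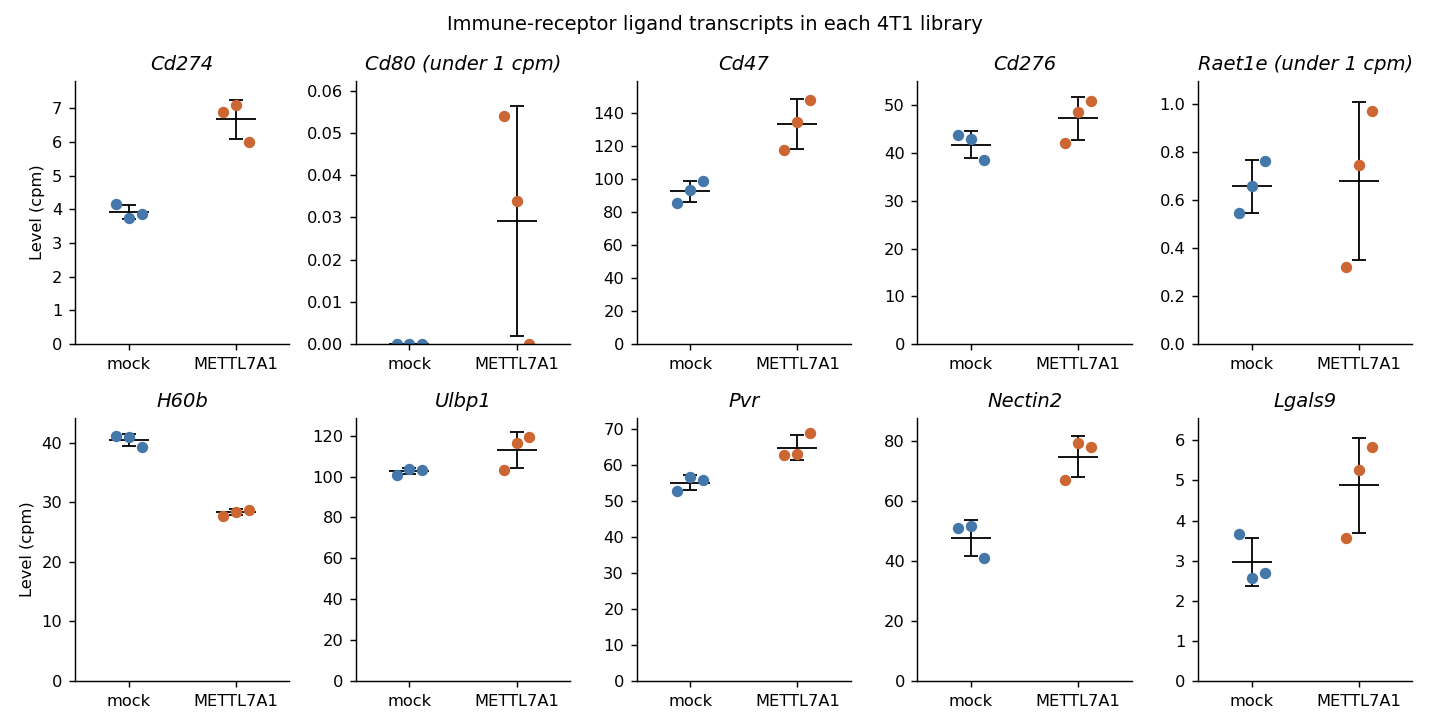
Level in cpm of each of the 10 ligand transcripts in each of the 6 libraries, with a separate axis from 0 for each gene. Points are libraries, and lines with bars are means with SD (n = 3). The points of the 2 groups do not overlap for Cd274, Cd47, Nectin2 and Pvr, which are higher in METTL7A1, and for H60b, which is lower.

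Cd274 (chromosome 19, 29367455 to 29388095) encodes PD-L1, the ligand of the T cell checkpoint PD-1. Its counts, here and below in order of replicate number, were 128, 210 and 148 in METTL7A1 and 76, 91 and 96 in mock libraries. On the cpm scale all METTL7A1 libraries (6.001 to 7.11) lay above all mock libraries (3.76 to 4.15). The level rose from 3.92 ± 0.207 to 6.67 ± 0.588 cpm (SD, n = 3), a log2 fold change of 0.77 ± 0.14 (SE) (adjusted p = 0.00149, edgeR). Jak2, which encodes a kinase of the interferon-γ receptor, lies close to Cd274 on the same chromosome and had 140 ± 3.31 against 130 ± 4.20 cpm, and its log2 fold change of 0.11 did not pass (adjusted p = 0.202, edgeR). Other abundant genes close by (mean log2 cpm over 2) differed from Jak2. Plgrkt, nearer to Cd274 than Jak2, had a log2 fold change of 0.53. Next in distance after Jak2, Ric1 had 0.19, Ermp1 0.93 and Rcl1 -0.36. Within each library, Cd274 had 0.0437 to 0.0496 counts per count of Jak2 in METTL7A1 and 0.0280 to 0.0320 in mock cells.

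Lgals9 (chromosome 11, 78962974 to 78984946) encodes galectin-9, a lectin that binds TIM-3 on T cells and myeloid cells. Its counts were 66, 155 and 144 in METTL7A1 and 67, 62 and 67 in mock libraries. METTL7A1 replicates 2 and 3 were high, whereas METTL7A1 replicate 1, at 3.56 cpm, lay below the highest mock library at 3.66 cpm. The mean level was 4.88 ± 1.18 cpm in METTL7A1 and 2.97 ± 0.602 cpm in mock cells (SD, n = 3), with a log2 fold change of 0.74 ± 0.22 (SE) (adjusted p = 0.0183, edgeR). The rise was no longer past the threshold without METTL7A1 replicate 2 (log2 fold change 0.68, adjusted p = 0.0862), METTL7A1 replicate 3 (0.60, adjusted p = 0.0774) or mock replicate 2 (0.64, adjusted p = 0.0677).

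Cd47 (chromosome 16, 49855618 to 49915010), the antiphagocytic ligand of SIRPα, had 2186, 3973 and 3659 counts in METTL7A1 and 1568, 2265 and 2453 counts in mock libraries. Scaled to depth these were 118, 135 and 148 cpm against 85.7, 93.5 and 98.7 cpm, so that the lowest METTL7A1 library exceeded the highest mock library. The log2 fold change was 0.53 ± 0.09 (SE) (adjusted p = 0.000884, edgeR). Cd24a, which encodes another ligand that restrains phagocytes, fell from 266 ± 32.7 to 159 ± 14.4 cpm (SD, n = 3), a log2 fold change of -0.74 (adjusted p = 0.000171, edgeR). Of the 40 chromosome neighbours of Cd24a 36 were also lower, and with their median as an offset its log2 fold change was -0.24 and did not pass (adjusted p = 0.0863, edgeR). In counts of the same library, Cd47 stood at 0.803 to 0.866 per count of Cd24a in METTL7A1 and at 0.308 to 0.399 in mock cells. Qpctl, whose product modifies the amino terminus of CD47, had 8.55 ± 0.884 against 9.58 ± 0.711 cpm (log2 fold change -0.16, adjusted p = 0.333, edgeR). Of the exon bases of Qpctl, 17.4% lie opposite exons of Fbxo46.

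Members of the B7 family differed in level. Cd276 (chromosome 9, 58524300 to 58555132), which encodes the B7 homologue B7-H3, had 782, 1435 and 1256 counts in METTL7A1 and 800, 1041 and 959 counts in mock libraries. The groups overlapped, with METTL7A1 replicate 1 at 42.1 cpm below mock replicate 1 at 43.7 cpm. The log2 fold change of 0.18 did not pass (95% confidence interval -0.01 to 0.37, adjusted p = 0.119, edgeR), and it reached 0.26 without METTL7A1 replicate 1 (adjusted p = 0.0158, edgeR). Cd80 (chromosome 16, 38458933 to 38486933) had 1, 1 and 0 counts in METTL7A1 and 0 counts in all mock libraries. A count of 0, for which up to 3 counts are allowed, leaves room for 0.105 to 0.163 cpm depending on the library, so no difference in Cd80 was detectable at this depth. Such limits cover counting error only. Cd86, the other ligand of CD28 and CTLA-4, had a single count in mock replicate 2, and Pdcd1lg2, which encodes the second PD-1 ligand, had 0 counts in every library. Cmtm6, whose product protects PD-L1 from degradation, had 67.9 ± 9.30 against 60.1 ± 6.76 cpm (log2 fold change 0.18, adjusted p = 0.205, edgeR), and passed the test without METTL7A1 replicate 1 (0.28, adjusted p = 0.0337).

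Of the abundant NKG2D ligands, H60b fell and Ulbp1 did not pass the test. H60b (chromosome 10, 22158586 to 22288849), an H60 family gene, had 515, 839 and 708 counts in METTL7A1 and 751, 991 and 975 counts in mock libraries. Its libraries lay close together within each group, at 27.8 to 28.7 cpm against 39.2 to 41.1 cpm, with no overlap. The log2 fold change was -0.51 ± 0.07 (SE) (adjusted p = 0.00018, edgeR), a call that was lost once the direction of its chromosome neighbours was taken as an offset, as described below. Ulbp1 (chromosome 10, 7444873 to 7473477), which encodes MULT1, had 1914, 3435 and 2945 counts in METTL7A1 and 1844, 2512 and 2566 counts in mock libraries. METTL7A1 replicate 1, at 103 cpm, lay within the range of the mock libraries, 101 to 104 cpm, and the other two lay above it at 116 and 119 cpm. The log2 fold change of Ulbp1 was 0.14 (95% confidence interval -0.02 to 0.30, adjusted p = 0.146, edgeR), and 0.21 without METTL7A1 replicate 1 (adjusted p = 0.0261, edgeR).

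Raet1e (chromosome 10, 22158569 to 22374139), of the RAE-1 family, had 6, 22 and 24 counts in METTL7A1 and 10, 16 and 19 counts in mock libraries. It stayed under 1 cpm in all libraries, at 0.680 ± 0.330 against 0.657 ± 0.109 cpm (SD, n = 3), and the METTL7A1 range enclosed the mock range. Tested with no abundance filter, its log2 fold change was 0.12 ± 0.37 (SE) (adjusted p = 0.867, edgeR). Raet1e shared 55.5% of its stretches of 31 bases with other genes, 49.7% with Raet1d, so its count is uncertain. Raet1d itself had 8, 19 and 7 against 6, 10 and 15 counts. H60c, a further H60 gene, had 1.13 ± 0.164 against 1.65 ± 0.170 cpm, and its log2 fold change of -0.54 did not pass (adjusted p = 0.0814, edgeR). Raet1a, Raet1b, Raet1c and H60a were not analysed here. The reads were aligned to the reference genome, which is of C57BL/6J origin, whereas 4T1 derives from a BALB/c mouse, and genes of these families differ between strains.

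Per kilobase of exon, Ulbp1 and H60b together held nearly all of the RNA of the 5 NKG2D ligand genes analysed (Ulbp1, H60b, H60c, Raet1e and Raet1d). The shares below refer to these 5 genes only and leave out Raet1a, Raet1b, Raet1c and H60a, which were not analysed. The share of Ulbp1 was 71.8% ± 1.08 (SD, n = 3) in METTL7A1 and 62.0% ± 0.675 in mock cells, and that of H60b was 27.0% ± 1.26 against 36.6% ± 0.873. The summed level was 86.5 ± 5.36 against 90.9 ± 0.904 cpm per kb. Within libraries there were 3.72, 4.09 and 4.16 counts of Ulbp1 per count of H60b in METTL7A1, and 2.46, 2.53 and 2.63 in mock cells. This ratio of raw counts does not depend on the scaling of the libraries, and its values did not overlap between the groups. Each of the 4 count ratios given here had p = 0.10 (two-sided exact permutation test), the smallest that 3 against 3 libraries allow. The paired genes differed in fold change in these same libraries, so the ratios restate those changes and lend no separate support.

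Both nectin-family ligands rose. Nectin2 (chromosome 7, 19716644 to 19749573) had 1241, 2344 and 1923 counts in METTL7A1 and 931, 1250 and 1016 counts in mock libraries. The METTL7A1 libraries stood at 66.9 to 79.4 cpm, above the mock libraries at 40.9 to 51.6 cpm, and the log2 fold change was 0.65 ± 0.10 (SE) (adjusted p = 0.000432, edgeR). Pvr (chromosome 7, 19903578 to 19921160), which lies close by on the same strand, had 1165, 1865 and 1701 counts in METTL7A1 and 969, 1374 and 1391 counts in mock libraries. Its levels of 62.8 to 69.0 cpm lay just above the mock range of 53.0 to 56.7 cpm, and the log2 fold change was 0.23 ± 0.07 (SE) (adjusted p = 0.0191, edgeR). The rise of Pvr did not pass without METTL7A1 replicate 2 (0.25, adjusted p = 0.0603), METTL7A1 replicate 3 (0.19, adjusted p = 0.0760) or mock replicate 1 (0.22, adjusted p = 0.0582). Counts of Nectin2 per count of Pvr were 1.07, 1.26 and 1.13 in METTL7A1 and 0.961, 0.910 and 0.730 in mock libraries, again without overlap.

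Levels of different genes were compared as cpm per kb of exon. In mock cells Ulbp1 was the most abundant ligand at 56.4 ± 0.852 cpm per kb (SD, n = 3), followed by H60b at 33.3 ± 0.825, Pvr at 19.0 ± 0.681, Cd47 at 17.6 ± 1.24, Nectin2 at 13.9 ± 1.74 and Cd276 at 12.7 ± 0.839. Lgals9 followed at 1.84 ± 0.373, Cd274 at 1.08 ± 0.0570 and Raet1e at 0.336 ± 0.0557 cpm per kb. In this order the libraries of Pvr and Cd47 overlapped, as did those of Nectin2 and Cd276. In METTL7A1 cells Ulbp1 stayed first at 62.1 ± 4.75 cpm per kb. Cd47 (25.3 ± 2.90), H60b (23.3 ± 0.403), Pvr (22.4 ± 1.20) and Nectin2 (21.7 ± 1.99) came next, each overlapping the following one, so that H60b no longer stood apart from these 3 ligands. Cd276, at 14.3 ± 1.38, Lgals9, at 3.03 ± 0.734, Cd274, at 1.84 ± 0.162, and Raet1e, at 0.348 ± 0.168 cpm per kb, kept the lower places.

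**Figure D2:**
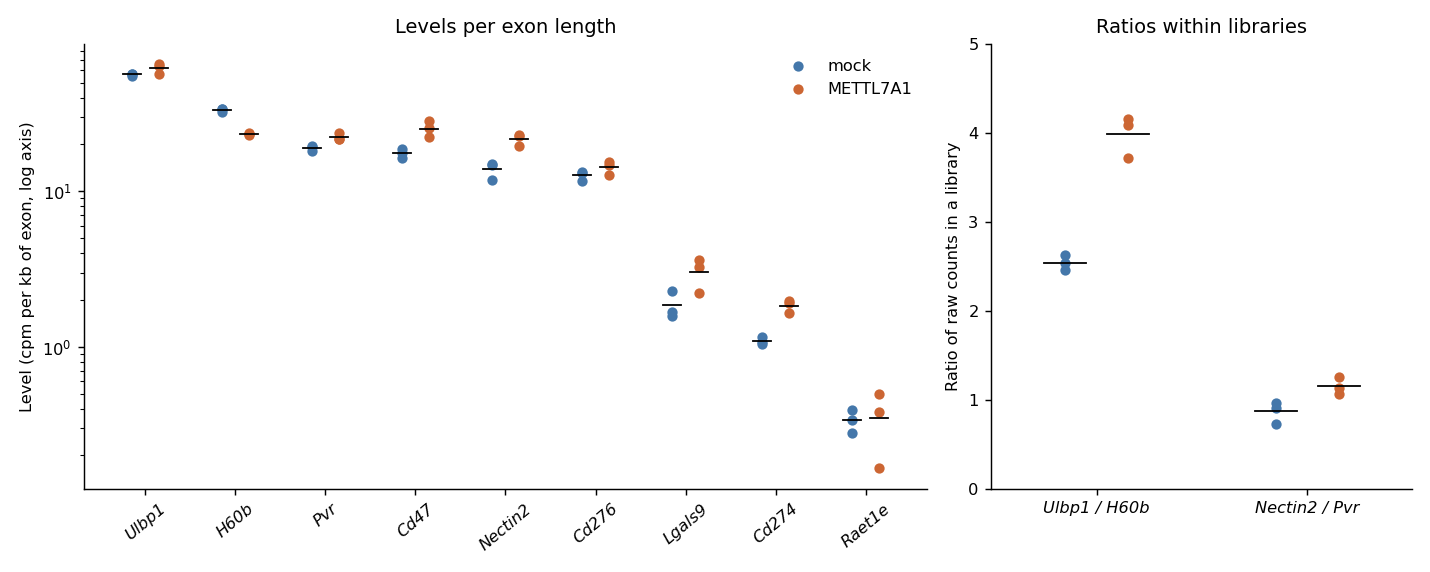
Left, level in cpm per kb of exon on a log axis for the 9 ligands other than Cd80, in mock order. Right, ratio of raw counts within a library for Ulbp1 to H60b and Nectin2 to Pvr. Points are libraries and lines are group means. H60b drops from 33.3 to 23.3 cpm per kb to the level of Cd47, Pvr and Nectin2, and both ratios are higher in every METTL7A1 library.

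Other ligands of T cells and phagocytes were counted from a list of 20 genes, of which 9 passed the filter and 6 changed, 4 upward and 2 downward, beside 42.1% of all tested genes (21.1% higher, 21.0% lower). Vsir, which encodes the checkpoint protein VISTA, rose from 1.28 ± 0.322 to 3.46 ± 0.757 cpm (SD, n = 3), a log2 fold change of 1.45 (adjusted p = 0.000952, edgeR). Of the 40 chromosome neighbours of Vsir 39 were also higher. With their median of 0.50 as an offset its log2 fold change was 0.95 (adjusted p = 0.0154, edgeR). Tnfrsf14, whose product HVEM binds BTLA, rose by 1.02 on the log2 scale from 0.661 ± 0.125 cpm, Tnfsf9, which encodes the costimulatory ligand 4-1BBL, by 0.66 and the galectin gene Lgals3 by 0.35. With the neighbour offset Tnfrsf14 had 1.14, Tnfsf9 0.77 and Lgals3 0.63, and each still passed. All mock libraries of Tnfrsf14 lay under 1 cpm, so it passed the filter only through the group in which it was high. Btn2a2, a butyrophilin gene named after its values were seen, had 3, 10 and 4 counts in METTL7A1 and 23, 20 and 19 in mock libraries and did not pass the filter. Tested with no filter, its log2 fold change was -1.95 (adjusted p = 8.09e-05, edgeR). Tnfsf18, also named after its values were seen and also not past the filter, had 6, 7 and 12 counts against 0, 1 and 0. Its log2 fold change with no filter was 4.15 (adjusted p = 0.0002, edgeR). With no filter 6 genes of the list were higher and 3 lower, beside 11.6% and 9.31% of the 28601 genes then tested (20.9% in either direction). Cd24a fell, as given above, with the same loss of its call under the neighbour offset, and Hmgb1, which encodes a chromatin protein that binds TIM-3 once released, had a log2 fold change of -0.37, which the offset moved to 0.029. The median over the 9 genes was 0.26. Btnl2 and Cd70 had 0 counts in every library, as did Pdcd1lg2, and 8 of the 20 genes had at most 3 counts in any library.

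Of 20 other NK-receptor ligands, 16 were analysed, 9 passed the filter and 3 changed, or 33.3% beside the 42.1% of all tested genes. With the neighbour offset described below 5 of the 9 passed, 4 higher and 1 lower. Of all tested genes 31.5% then passed, 18.1% higher and 13.4% lower. H2-T23, which encodes the Qa-1 protein recognised by the inhibitory receptor NKG2A, had 352, 580 and 518 counts in METTL7A1 and 129, 202 and 153 counts in mock libraries. Its log2 fold change was 1.47 ± 0.12 (SE) (adjusted p = 5.93e-06, edgeR). Nectin4, an adhesion protein of the nectin family, had 51, 74 and 72 against 13, 14 and 16 counts, and with a log2 fold change of 2.08 was the only gene of the list past the thresholds of the study. Its mock libraries all lay under 1 cpm, so that its rise itself carried it past the abundance filter. Nectin3, another nectin, fell from 57.5 ± 1.82 to 38.9 ± 3.38 cpm (SD, n = 3), a log2 fold change of -0.56. Nectin1 had 31.3 ± 2.25 against 31.2 ± 2.19 cpm and did not pass (log2 fold change 0.01, adjusted p = 0.956, edgeR), and was named after its values were seen. The median over the 9 genes was 0.01.

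Of 27 listed regulators of these ligands all passed the filter, and 13 changed (9 higher, 4 lower), or 48.1% beside the 42.1% of all tested genes. Among those that rose were Ifnar1 and Ifnar2, which encode both chains of the type I interferon receptor, by 0.42 and 0.65 on the log2 scale, the kinase gene Tyk2 by 0.44 and the transcription factor gene Stat2 by 0.75. With the neighbour offset described below, Ifnar1 had 0.24, Ifnar2 0.48, Tyk2 0.63 and Stat2 0.32, and each still passed. Irf1, a factor known to act on the Cd274 promoter, rose from 56.0 ± 0.358 to 67.7 ± 2.04 cpm (SD, n = 3), a log2 fold change of 0.27 (adjusted p = 0.00545, edgeR). Irf9, which acts with Stat2, did not pass, with a log2 fold change of 0.09, and was named after its value was seen. The interferon-γ receptor gene Ifngr1 was among the 4 regulators that fell, with a log2 fold change of -0.30. No regulator was called lower with the neighbour offset. Ifngr2, Jak1, Jak2, Irf2 and Stat3 did not pass without it. Adam10, which encodes a protease that sheds surface proteins, rose by 0.45 and E2f1, a cell cycle factor, by 0.41. Hif1a, which encodes the hypoxia factor, fell from 305 ± 22.2 to 199.9 ± 5.23 cpm, a log2 fold change of -0.61, and its call was lost with the neighbour offset (-0.14, adjusted p = 0.209, edgeR). The call of E2f1 was lost in the same way (0.21, adjusted p = 0.0903, edgeR). The median over the 27 genes was 0.11.

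**Figure D3:**
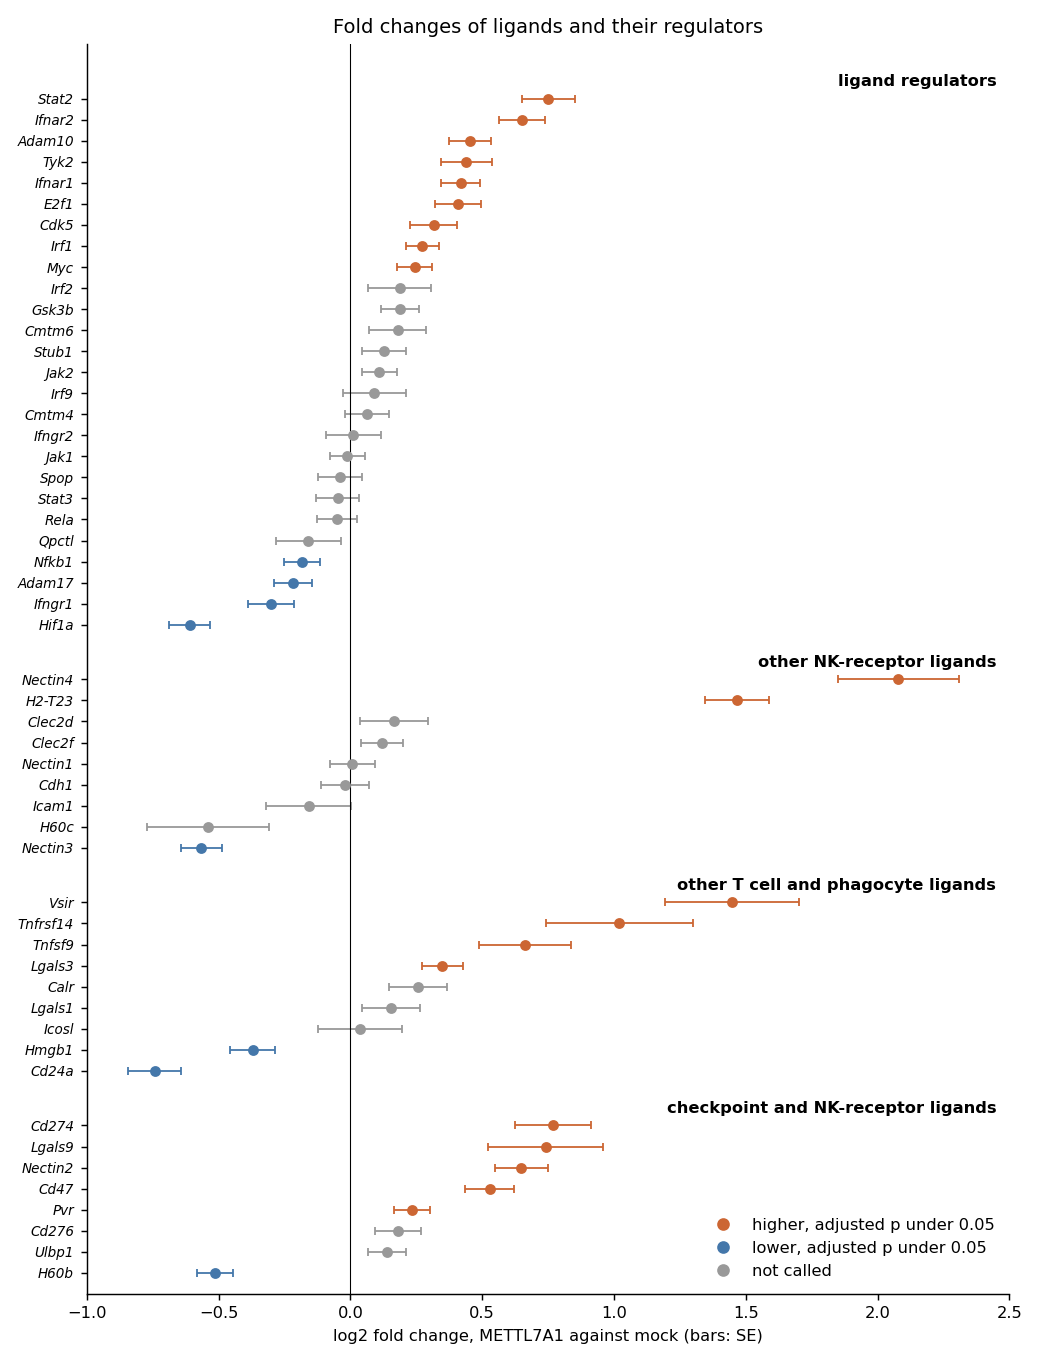
Log2 fold change of METTL7A1 against mock for tested genes of 4 lists: the 8 tested ligands, 9 other T cell and phagocyte ligands, 9 other NK-receptor ligands and the regulators, of which 1 is not drawn. Points are edgeR estimates, bars are SE, and colours mark an adjusted p under 0.05. The ligands range from H60b at -0.51 to Cd274 at 0.77, below Nectin4 at 2.08 and H2-T23 at 1.47.

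The receptors of these ligands were examined in the same libraries. Of 10 listed, 9 were analysed, and Pdcd1, Cd226 and Cd96 had 0 counts in every library, whereas 3 genes passed the filter. Their genes are named here after their values were seen. Sirpa, the receptor of CD47, rose from 9.33 ± 1.80 to 22.4 ± 1.74 cpm (SD, n = 3), and Havcr2, which encodes TIM-3, rose from 4.32 ± 0.464 to 18.8 ± 2.80 cpm. Their log2 fold changes were 1.26 and 2.12 (adjusted p = 3.23e-05 and 1.27e-06, edgeR). Tigit had 13.1 ± 1.17 against 12.3 ± 1.15 cpm, with a log2 fold change of 0.09 (adjusted p = 0.566, edgeR). The summed level of the receptors was 48.8 to 59.8 cpm in METTL7A1 and 23.9 to 28.8 cpm in mock libraries. The monocyte and macrophage markers Cd14, Cd68 and Csf1r rose in the same libraries, Ptprc had at most 8 counts, and their part in the values of Sirpa and Havcr2 was not tested.

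To show how far each ligand followed its region, it was set beside its 40 nearest abundant neighbours (mean log2 cpm over 2). Of the neighbours of H60b 32 of 40 were lower in METTL7A1 cells, with a median log2 fold change of -0.40, and of those of Ulbp1 35 of 40 were lower, with a median of -0.42. H60b stood near its neighbours, and with their median as an offset its log2 fold change was -0.11 and no longer passed (adjusted p = 0.245, edgeR). Ulbp1 stood above the median of its neighbours, and with the offset its log2 fold change was 0.56 (adjusted p = 0.000178, edgeR). Closest to Ulbp1, Lrp11 had 0.19, Pcmt1 -0.33 and Nup43 -0.66, and the neighbours reached 10.6 Mb from it. The median enters each of these fits as a fixed value, so the p-values with the offset leave out the spread among neighbours. Nectin2 and Pvr lie in the same region and, apart from each other, had the same neighbours, with a median of -0.22 and 31 of 40 lower. With this shared offset their log2 fold changes were 0.87 and 0.46 (adjusted p = 7.54e-05 and 0.000565, edgeR). Cd274 lay in a region with a median of 0.12 (27 of 40 higher) and Cd47 in one with a median of 0.19 (32 of 40 higher). Their log2 fold changes became 0.65 and 0.34 with the offset (adjusted p = 0.00558 and 0.0148, edgeR). The neighbours reached 6.74 Mb from Cd274 and 7.57 Mb from Cd47. Closest to Cd47, Ift57 had 0.55, Bbx 0.34 and Dubr 0.40, near its own 0.53. Next in distance, C330027C09Rik had 0.05 and Dzip3 0.08. Lgals9, with a neighbour median of -0.08, had 0.82 with the offset (adjusted p = 0.0147), and Cd276 had 0.20 (adjusted p = 0.106). With the offset 6 of the 8 ligands passed, all of them higher, and 5 of these also passed without it. Of all tested genes 31.5% then passed, 18.1% higher and 13.4% lower. Cmtm6 passed with the offset at 0.33. Whether copy number differs between the lines was not tested.

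**Figure D4:**
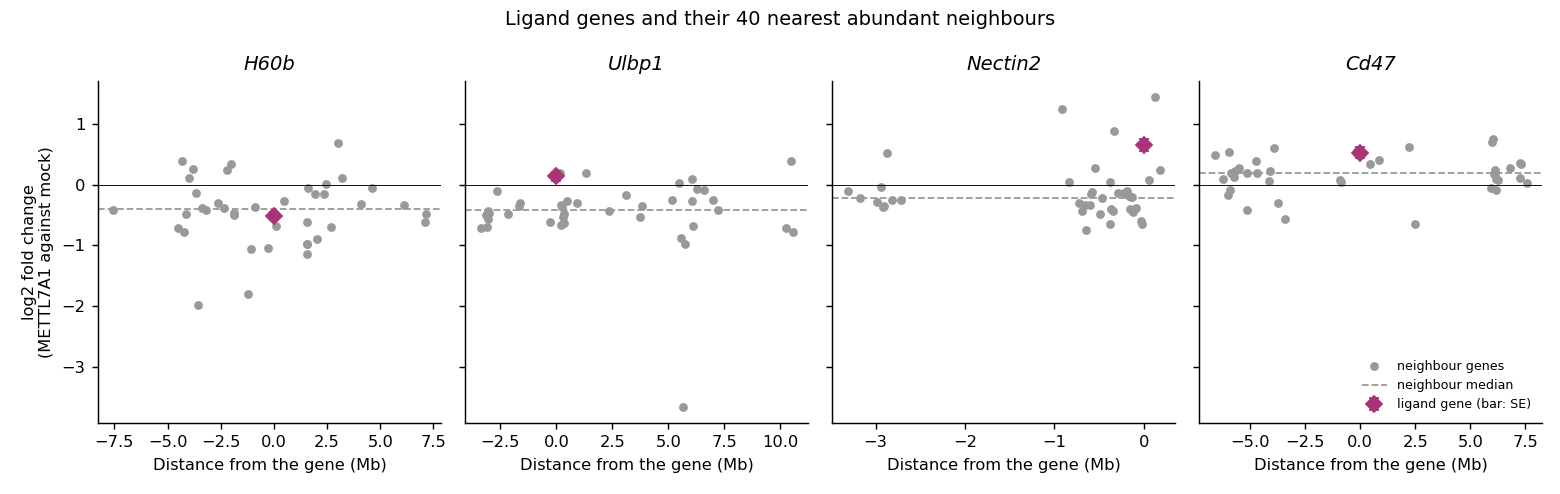
Log2 fold change of H60b, Ulbp1, Nectin2 and Cd47 (diamonds, bars are SE) and of their 40 nearest abundant neighbours (grey points) against distance from the gene in Mb. Dashed lines are neighbour medians. H60b, at -0.51, lies near its neighbour median of -0.40, while Ulbp1 at 0.14 and Nectin2 at 0.65 lie above medians of -0.42 and -0.22.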

How the data were processed

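Total RNA of 3 METTL7A1 and 3 mock 4T1 libraries was prepared with a stranded, ribosomal RNA-depleting Illumina kit. The authors trimmed reads, aligned them to mm10 (STAR 2.5.3a, per the submitters' processing notes, which also name R 3.5.1 and bcl2fastq 2.20.0.422) and deposited raw counts per gene from featureCounts, with exon positions and length. How strand and multiply mapped reads were counted is not given in the sources used here, so genes that share exon bases or sequence are uncertain. Coordinates are those of the table, counted from 1.

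Counts were analysed with edgeR 4.0.16 (R 4.3.3): genes with at least 1 cpm in at least 3 libraries (13166 of 48587), TMM scaling, the quasi-likelihood test of METTL7A1 against mock without covariates, and Benjamini-Hochberg adjustment over all tested genes, with calls at an adjusted p under 0.05. The SE is the log2 fold change divided by the square root of F. Levels are cpm on TMM-scaled library sizes, per kb where genes are compared. Depth, 18386780 to 28459338 counts, allows 0.105 to 0.163 cpm for a gene at 0. Alternatives were RLE and upper quartile scaling, no filter, a minimum of 10 counts per library, the 20 most abundant genes left out, a replicate block, omission of each library, DESeq2 1.42.0, limma voom (limma 3.58.1) and a neighbour offset. The fit was tested on simulated data: in counts drawn for METTL7A1 against mock over 13166 genes, 91 of 100 genes changed by 1 on the log2 scale and 100 of 100 changed by 2 were called, with 18 unchanged genes among 209 calls. Smaller changes, such as those of the ligands, were not simulated. Nor was a share of changed genes as large as that called in the data.

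The members and lists were chosen with earlier results of these data known. All 10 ligands are named; of each of the 3 other lists all genes past the test were named, or the 8 with the smallest p where more passed, plus Pdcd1lg2, Cd86, the other Raet1 and H60 genes, Jak2, Cmtm6, Qpctl and Irf1. Receptors and markers were given by summed level and genes at 0. The receptors and markers with values and Irf9, Nectin1, Btn2a2 and Tnfsf18 were named after their values were seen. So were Ifngr1, Ifngr2, Jak1, Irf2, Stat3 and the genes named only as neighbours. A few listed genes are counted but not reported here by name.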

Additional observations from a re-analysis of the deposited data

How the results depend on the processing

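Of 474 log2 fold changes recomputed for 32 named genes under the alternatives, 455 kept direction and side of the threshold, 10 lost the call, 5 gained it and 4 turned direction. All 4 turned with the neighbour offset, to 0.029 for Hmgb1, -0.026 for Jak2, 0.0631 for Qpctl and -0.10 for Tigit. The offset also ended the calls of H60b, Cd24a (-0.24), Hif1a (-0.14) and E2f1 (0.21) and gained those of Ulbp1 (0.56) and Cmtm6 (0.33). It raised the other NK-receptor ligands called from 3 to 5 of 9, while the share of all tested genes went from 42.1% to 31.5%. The offset subtracts the neighbours' median by construction. Leaving out 1 library in turn gave 4 to 8 ligands called, 5 to 6 other T cell and phagocyte ligands, 2 to 3 other NK-receptor ligands, 9 to 15 regulators, 3761 to 5753 genes in all and 0 ligands past the thresholds of the study. Of the ligands, 4 (Cd274, Cd47, H60b and Nectin2) passed in every such fit, and 4 were called without METTL7A1 replicate 2 and 8 without METTL7A1 replicate 1. Nectin4 and Tnfrsf14 were not tested without a METTL7A1 library, because fewer than 3 libraries then reached 1 cpm. Replicate numbers did not pair the libraries (correlations of deviations -0.16, 0.29 and -0.43), and with the replicate block 4810 genes and 6 ligands were called. Cd80 and Raet1e stayed under 1 cpm in every library. Depth limits Cd80, and sequence shared with other genes leaves the count of Raet1e uncertain.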
